A study of Homo sapiens with 5 samples.

Results

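Condensin and cohesin are ring-shaped protein complexes that shape chromosomes, and each is built around a pair of SMC proteins, long coiled-coil ATPases. Condensin I and condensin II share SMC2 and SMC4 and differ in their non-SMC subunits, NCAPD2, NCAPG and NCAPH in condensin I and NCAPD3, NCAPG2 and NCAPH2 in condensin II. Condensins compact chromosomes for mitosis, with condensin II in the nucleus throughout the cell cycle and condensin I reaching chromosomes after nuclear envelope breakdown. Cohesin, built on SMC1A and SMC3, holds sister chromatids together until anaphase and extrudes chromatin loops in interphase, so its SMC genes are used by resting cells as well as by dividing ones.

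The genes described here are these 8 condensin genes and 2 cohesin SMC genes, 10 of 26364 names listed in the mRNA-seq table. They were chosen by name, as the subunits of known complexes, with their difference between NSD2-KD and Ctr-KD cells already known, so that difference is given as a description. No p-value is given for a member, and counts of members past a threshold stand beside the share of all genes. The data came from 5 mRNA-seq libraries of growing cells of the IMR-90 line, fibroblasts from normal human lung, taken 24 hr after siRNA transfection. Ctr-KD cells (2 libraries, replicates 1 and 2) received a control siRNA and NSD2-KD cells (3 libraries) an siRNA against NSD2, a histone methyltransferase. The 3 NSD2-KD libraries used a different siRNA each, NSD2-1, NSD2-2 and NSD2-3, so siRNA and replicate cannot be told apart and no siRNA was tested alone. All 5 libraries came from 1 cell line, and knockdown by siRNA is transient and incomplete.

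Values are normalized counts, the reads on a gene divided by a scaling factor for the library, and differences are NSD2-KD minus Ctr-KD on the scale log2(normalized count + 1). The 5 libraries held between 2473691 (NSD2-2) and 2845063 (NSD2-1) reads on genes, and 3 reads were worth 2.76 to 3.28 normalized counts. NSD2, listed under its older symbol WHSC1, stood at 463 and 443 in Ctr-KD cells and at 90.2, 81.9 and 87.9 with NSD2-1, NSD2-2 and NSD2-3, and it fell by 2.37 on the log2 scale (standard error 0.12, adjusted p = 0.000465, limma with Benjamini-Hochberg adjustment over 11312 tested genes). The fibroblast label was checked with 8 markers, all of them present in every library, from at least 352 for LUM to at least 91004 for COL1A1. Of 5 markers of other cells, PECAM1, CDH5 and PTPRC were at 0 in all libraries, and CDH1 and EPCAM did not exceed 1.03 and 2.18. In bulk RNA, fewer cells that express a gene and less RNA per cell cannot be told apart.

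Promoter sequence did not enter the choice of the members, and it is shown first. The letters to be matched were chosen after the windows had been searched, so their shares are only a description. RefSeq windows on GRCh38.p14, from 250 bases before to 50 bases after a gene's start, were given for 9 of the 10 members (not NCAPH2) and were searched on both strands for letters that occur in promoters of cell cycle genes. These were the CHR element (cell cycle genes homology region, TTTGAA), which binds MuvB complexes, the CCAAT box (CCAAT), which binds NF-Y, and a core of E2F sites (TTCCCGC or TTGGCGC). The stretches below hold the matches of 6 members, the shared SMC genes, NCAPG of condensin I, NCAPD3 of condensin II and the cohesin SMC genes, so that each complex can be read. They are written 5′ to 3′ on the strand of the gene, with the matched letters in capitals (on the opposite strand TTTGAA reads as TTCAAA, the E2F core TTCCCGC reads as GCGGGAA and the CCAAT box reads as ATTGG).
SMC4, chr3:160399555-160399600, plus strand: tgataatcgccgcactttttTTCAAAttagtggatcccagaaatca
SMC2, chr9:104094286-104094311, plus strand: gtcctttgctcgcgccgaaaTTCAAA
NCAPG, chr4:17810858-17810969, plus strand: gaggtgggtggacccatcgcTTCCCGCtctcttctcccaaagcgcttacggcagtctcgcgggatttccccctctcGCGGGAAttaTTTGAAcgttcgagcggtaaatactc
NCAPD3, chr11:134223965-134224217, minus strand: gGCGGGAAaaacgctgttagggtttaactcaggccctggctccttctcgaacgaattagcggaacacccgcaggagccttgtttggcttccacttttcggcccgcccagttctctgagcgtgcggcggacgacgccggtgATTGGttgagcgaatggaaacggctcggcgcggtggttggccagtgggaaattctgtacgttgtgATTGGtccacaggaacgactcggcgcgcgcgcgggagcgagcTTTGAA
SMC3, chr10:110567524-110567569, plus strand: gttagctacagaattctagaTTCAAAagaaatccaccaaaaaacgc
SMC1A, chrX:53422652-53422693, minus strand: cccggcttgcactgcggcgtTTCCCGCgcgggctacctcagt

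The CHR letters lay 75 bases before the start in SMC4, 3 in SMC2, 35 in NCAPG and 151 in SMC3. In NCAPG they followed E2F letters 101 and 45 bases before the start, without sharing a base with them. SMC1A held no CHR letters in its windows and had E2F letters 19 bases before one of its starts. Over all 9 members the CHR letters were in 7, all but NCAPH and SMC1A, beside 18.2% of 27305 genes with windows of the same length. In NCAPG2 they lay after the start, at position 36. Some members had 2 windows, and counted by window the CHR letters were in 7 of 13, beside 15.2% of all windows. The CCAAT letters were in 3 members (NCAPD2, NCAPH and NCAPD3) beside 39.7% of genes, and the E2F letters were in 3 (NCAPG, NCAPD3 and SMC1A) beside 10.96%. NCAPD2 held CCAAT letters at 4 places, 199, 170, 70 and 30 bases before its start, all on the strand opposite to the gene, with CHR letters between them at 145. NCAPD3 was the only one of the 9 members with all 3 kinds of letters, from E2F letters 249 bases to CHR letters 3 bases before one of its starts. A match says only that these letters occur in the window, and binding was not measured here.

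All 10 members were lower in NSD2-KD cells, and in each of them the 3 NSD2-KD libraries lay below both Ctr-KD libraries. Over all 11312 tested genes this held for 13.9%, and the opposite, all NSD2-KD libraries above, for 13.8%. It also held for most cell cycle genes of the Seurat lists, members left out, 35 of 40 S phase genes and 47 of 52 G2/M genes. The members' log2 differences ran from -1.17 (NCAPH) to -0.14 (SMC1A), with a median of -0.62, beside -0.01 over all tested genes. Of the 10, 1 gene, SMC4, passed an adjusted p under 0.05 in limma, where 6 genes (0.053%) were called lower and 4 (0.0354%) higher of all tested. DESeq2 on the reads recovered from the table called 44 genes lower (0.389%), again with SMC4 as the one member, and edgeR called SMC4 and no other member. As the members were chosen with this comparison known, nothing is read from these counts. All 10 passed the filter on low values, a mean of at least 10.

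**Figure D1:**
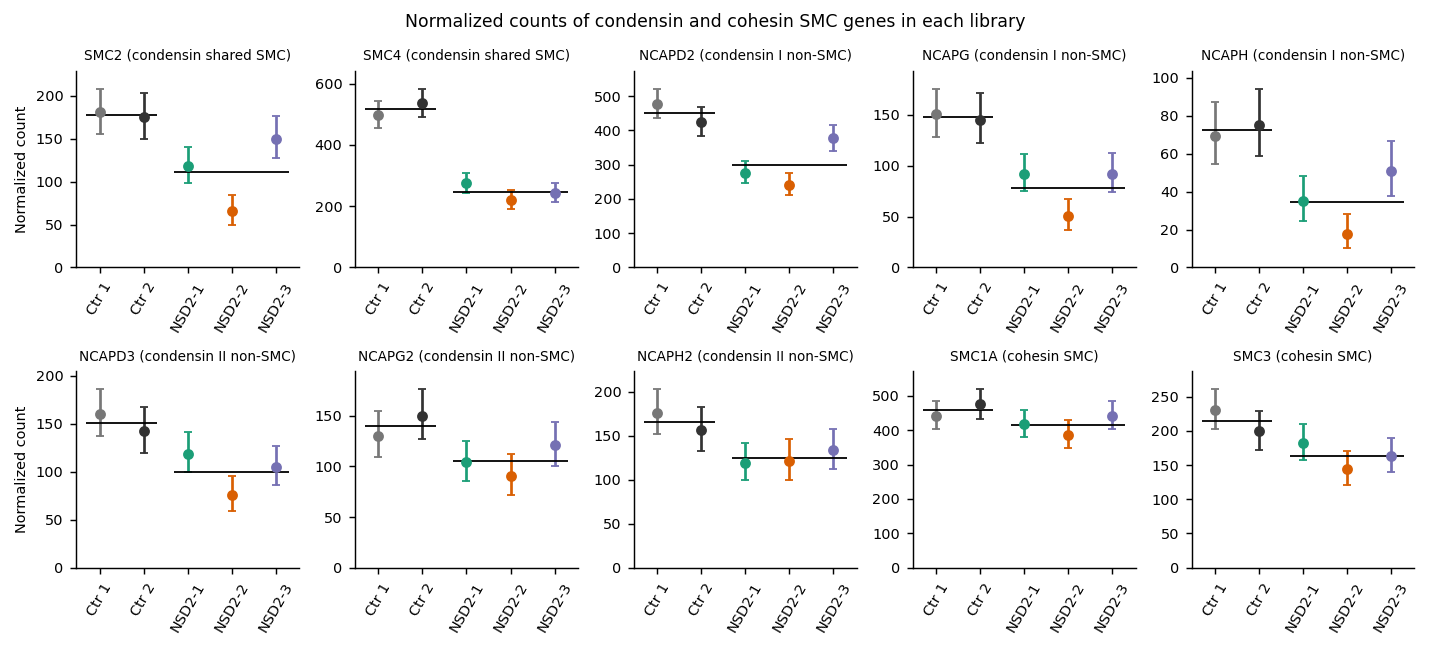
Normalized count (vertical axis, each panel starting at 0) of the 10 genes in the 2 Ctr-KD libraries (gray and black) and the 3 NSD2-KD libraries (colors), with lines for the group means and bars for the exact 95% Poisson interval of the reads in 1 library, which covers counting error only. The 3 NSD2-KD points lie below both Ctr-KD points in every panel, and the interval of SMC4 is separate from those of Ctr-KD cells with each siRNA.

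The shared SMC genes, needed by both condensins, gave the clearest and one of the most variable differences of the set. SMC4 (chr3:160117062-160152742 on GRCh37, plus strand) stood at 497 and 536 normalized counts in Ctr-KD cells and at 274, 221 and 242 with NSD2-1, NSD2-2 and NSD2-3. The lowest Ctr-KD library was thus well above the highest NSD2-KD library, and the 3 siRNAs left from 42.7% to 53.1% of its mean in Ctr-KD cells. The log2 difference of SMC4 was -1.07 (standard error 0.13), and in all 3 NSD2-KD libraries the counting interval lay below both Ctr-KD intervals. SMC4 was not called without Ctr-KD replicate 1, Ctr-KD replicate 2 or the NSD2-2 library, nor without limma's mean-variance trend, while its log2 difference stayed between -1.16 and -1.0 over all 14 alternatives. Without either Ctr-KD library no gene of the whole table was called lower.

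SMC2 (chr9:106856541-106903700, plus strand), the partner of SMC4 in the ring, stood at 181 and 175 in Ctr-KD cells and at 118, 65.5 and 150.3 with NSD2-1, NSD2-2 and NSD2-3. The siRNAs thus differed widely for SMC2, and NSD2-3 left 84.5% of the Ctr-KD mean where NSD2-2 left 36.8%. The log2 difference was -0.75 (standard error 0.30), and it was -0.42 without the NSD2-2 library. The ratio of the pair varied between siRNAs. Ratios of normalized counts are not corrected for gene length, so here and below they compare libraries and not the abundance of genes. SMC4 was 2.75 and 3.06 times SMC2 in normalized counts in the Ctr-KD libraries, and 2.33, 3.37 and 1.61 times with NSD2-1, NSD2-2 and NSD2-3. With NSD2-3, SMC4 fell short of its Ctr-KD level by much more than SMC2 did, although both must be present in a working condensin.

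The 3 non-SMC genes of condensin I had a median log2 difference of -0.97. NCAPH (chr2:97001504-97042829, plus strand) encodes the kleisin, the subunit that closes the ring, and had the fewest reads of the members, with 16 in the NSD2-2 library. Its normalized counts were 69.5 and 75.1 in Ctr-KD cells and 35.0, 17.5 and 50.8 with NSD2-1, NSD2-2 and NSD2-3. Its log2 difference was the lowest of the 10 members, -1.17 (standard error 0.39), and it also had the widest error. Without the NSD2-2 library the difference of NCAPH was -0.76.

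NCAPG (chr4:17812602-17846488, plus strand) and NCAPD2 (chr12:6602522-6641121, plus strand) encode the HEAT-repeat subunits that help condensin I hold DNA. NCAPG stood at 151 and 145 in Ctr-KD cells and at 92.0, 50.2 and 91.8 with NSD2-1, NSD2-2 and NSD2-3, a log2 difference of -0.97 (standard error 0.26). NSD2-1 and NSD2-3 therefore gave almost the same level of NCAPG, 62.3% and 62.1% of the Ctr-KD mean, and its counting interval lay below both Ctr-KD intervals with all 3 siRNAs, as it did for SMC4. NCAPD2 stood at 478 and 424 in Ctr-KD cells and at 276, 241 and 377 with NSD2-1, NSD2-2 and NSD2-3, a log2 difference of -0.62 (standard error 0.18). NSD2-3 was here the siRNA that left most, 83.5% of the Ctr-KD mean, and its interval lay below that of Ctr-KD replicate 1 but overlapped that of replicate 2. NCAPD2 was 6.88 and 5.64 times NCAPH in Ctr-KD cells and 7.89, 13.8 and 7.42 times with NSD2-1, NSD2-2 and NSD2-3. The kleisin thus stood lower relative to NCAPD2 with each siRNA than in either Ctr-KD library. Relative to NCAPG this did not hold for every siRNA. NCAPG was 2.16 and 1.93 times NCAPH in Ctr-KD cells and 2.63, 2.875 and 1.81 times with the 3 siRNAs in the same order. With NSD2-3 the counting interval of NCAPH overlapped those of both Ctr-KD libraries.

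The 3 non-SMC genes of condensin II differed less, with a median of -0.42. NCAPD3 (chr11:134020008-134095398, minus strand), the HEAT-repeat counterpart of NCAPD2, stood at 160.05 and 142 in Ctr-KD cells and at 119, 75.4 and 104 with NSD2-1, NSD2-2 and NSD2-3, a log2 difference of -0.62 (standard error 0.20). Its level was lowest with NSD2-2, and its counting interval was below both Ctr-KD intervals only there. The NSD2-2 interval of NCAPD3 overlapped its NSD2-3 interval. NCAPG2 (chr7:158423861-158497495, minus strand), the counterpart of NCAPG, stood at 131 and 150.2 against 104, 90.7 and 121, a log2 difference of -0.42 (standard error 0.17). NCAPH2 (chr22:50946653-50963209, plus strand), the condensin II kleisin, stood at 176 and 156 against 119.6, 121 and 134, a log2 difference of -0.41 (standard error 0.14). The gap from the lowest Ctr-KD to the highest NSD2-KD library was smaller than the range within either group for NCAPG2 and larger than both ranges for NCAPH2. None of the NSD2-KD counting intervals of these genes was separate from those of both Ctr-KD libraries. NCAPH2 was the one member whose lowest value was not with NSD2-2, and its 3 siRNAs lay close together, at 71.9% to 80.4% of the Ctr-KD mean.

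**Figure D2:**
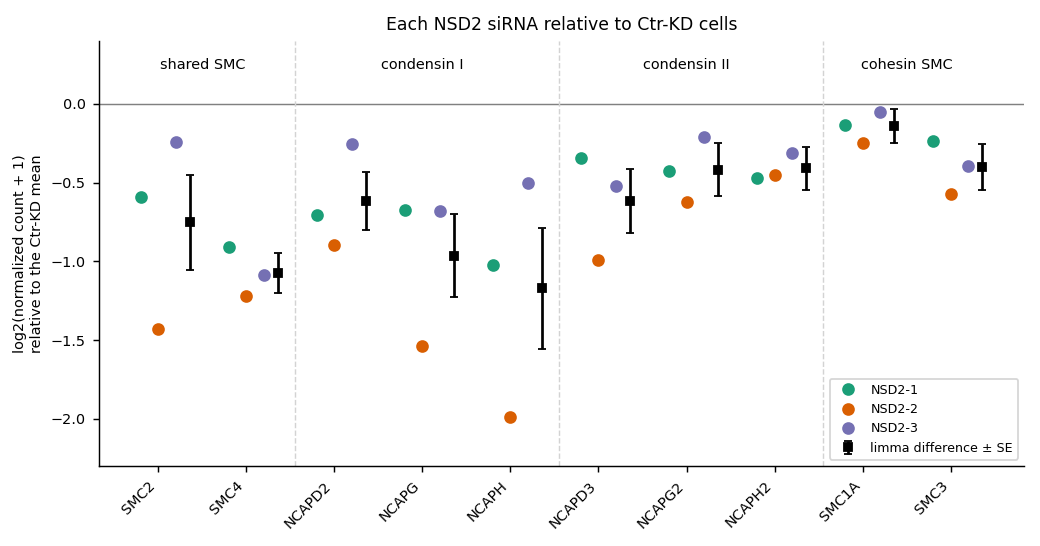
Log2 difference from the Ctr-KD mean (vertical axis, on the scale log2(normalized count + 1)) of each member with NSD2-1, NSD2-2 and NSD2-3 (circles) and the limma difference of the 3 NSD2-KD against the 2 Ctr-KD libraries with its standard error (squares, bars), ordered by complex. The NSD2-2 circle is lowest for 9 of 10 genes, and the limma differences of SMC1A (-0.14) and SMC3 (-0.40) are the nearest to 0, although SMC3 is further from 0 than some condensin genes with NSD2-2 and with NSD2-3.

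Summed over their 3 non-SMC genes, condensin I was 1.50 and 1.44 times condensin II in normalized counts in Ctr-KD cells. The ratio was 1.18 with NSD2-1 and 1.08 with NSD2-2, below both Ctr-KD values, but 1.45 with NSD2-3, between them. A lower share of condensin I in this sum thus did not hold for every siRNA. The Ctr-KD means of NCAPD2, NCAPG and NCAPH were 451, 148 and 72.3, so the condensin I sum mostly follows NCAPD2. The counterpart pairs did not all differ alike. NCAPH was left at 48.3%, 24.2% and 70.2% of the Ctr-KD mean by NSD2-1, NSD2-2 and NSD2-3 and NCAPH2 at 71.9%, 72.9% and 80.4%. NCAPG was left at 62.3%, 34.0% and 62.1% and NCAPG2 at 74.1%, 64.6% and 86.2%. NCAPD2 was left at 61.2%, 53.5% and 83.5% and NCAPD3 at 78.6%, 49.9% and 69.2%. NCAPD3 was thus the lower of its pair with NSD2-2 and NSD2-3.

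The cohesin SMC genes had a median log2 difference of -0.27. SMC3 (chr10:112327442-112365806, plus strand), whose acetylation locks cohesin on chromatin in S phase, stood at 231 and 199.6 in Ctr-KD cells and at 182, 144 and 163 with NSD2-1, NSD2-2 and NSD2-3, a log2 difference of -0.40 (standard error 0.15). That is about as far as NCAPG2 and NCAPH2, and only the NSD2-2 interval lay below both Ctr-KD intervals. SMC1A (chrX:53401070-53449677, minus strand), the SMC1 protein of mitotic cells, stood at 443 and 475 against 419, 387 and 442. With NSD2-3 it was less than 1 normalized count under the lower Ctr-KD library, and its log2 difference of -0.14 (standard error 0.11) was the nearest to 0 among the members. It was -0.09 without the NSD2-2 library and -0.09 without Ctr-KD replicate 2. SMC1A was 1.92 and 2.38 times SMC3 in Ctr-KD cells and 2.30, 2.68 and 2.71 times in NSD2-KD cells, so the groups overlapped in this ratio.

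Set against cohesin, the condensin SMC genes stood lower with each siRNA. The sum of SMC2 and SMC4 was 1.01 and 1.05 times that of SMC1A and SMC3 in the Ctr-KD libraries, and 0.652, 0.539 and 0.648 times with NSD2-1, NSD2-2 and NSD2-3. The scaling factor of a library cancels in this ratio, and the NSD2-KD values did not overlap those of Ctr-KD cells. The ratio uses the values by which the members were chosen, so it is not tested.

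NSD2-2 gave the lowest of the 3 NSD2-KD values in 9 of the 10 members, beside 34.8% of all tested genes. The median of the 10 members relative to the Ctr-KD mean was -0.53 with NSD2-1, -0.94 with NSD2-2 and -0.35 with NSD2-3 on the log2 scale. Cell cycle genes were also mostly lowest with NSD2-2, 80% of S phase genes and 73.1% of G2/M genes. For S phase genes (40 tested genes of the list in the Seurat package, members left out) the medians were -0.68, -1.46 and -0.91, and for G2/M genes (52 genes, members left out) they were -0.82, -1.38 and -0.58. The condensin I medians were -0.70, -1.54 and -0.50 and the shared SMC medians -0.75, -1.32 and -0.67. The condensin II medians, -0.43, -0.62 and -0.31, and cohesin SMC medians, -0.18, -0.41 and -0.22, were closer to 0 with all 3 siRNAs. In condensin I, condensin II, the shared SMC genes, the 10 members together and the G2/M list, NSD2-1 stood between NSD2-2 and NSD2-3. The NSD2-2 library was also the one with the fewest reads, and NSD2 was left at 18.1% there, beside 19.9% with NSD2-1 and 19.4% with NSD2-3. The part of cell cycle phase or of depth in the members' levels was not tested.

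**Figure D3:**
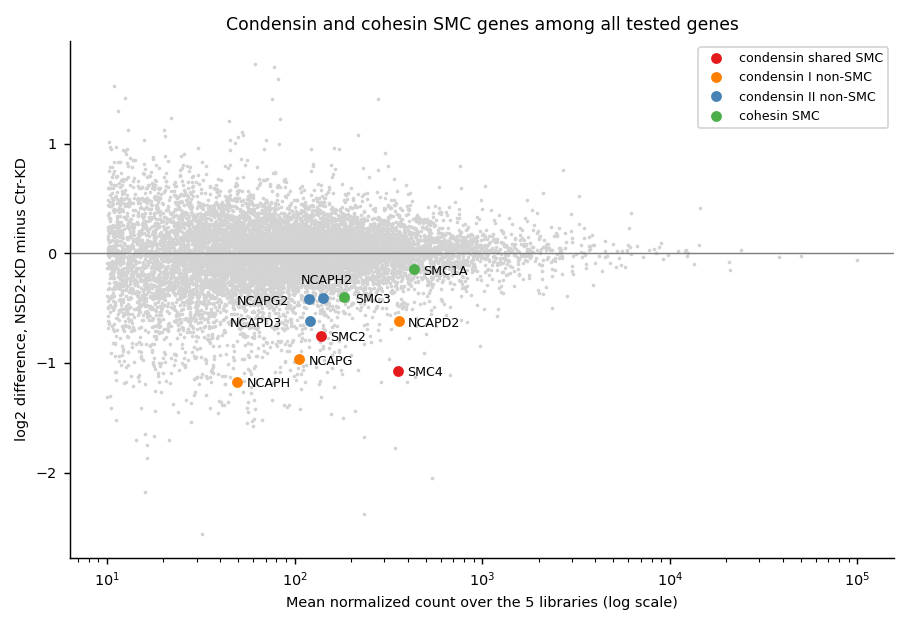
Log2 difference, NSD2-KD minus Ctr-KD (vertical axis), against the mean normalized count over 5 libraries (horizontal axis, log scale) for 11312 tested genes (gray), with the 10 members colored by complex. The members lie from -1.17 (NCAPH) to -0.14 (SMC1A), with SMC4 at -1.07.

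The genes whose 3 log2 ratios (each siRNA over the Ctr-KD mean) were nearest to those of SMC4, among 7577 genes with a mean of at least 50 and leaving out the members, were KIF18B, MCM3, HMMR, TACC3 and NDC1, at Euclidean distances of 0.24, 0.26, 0.27, 0.28 and 0.29 over the 3 ratios. KIF18B encodes a mitotic kinesin, MCM3 a subunit of the replicative helicase, HMMR and TACC3 spindle proteins and NDC1 a nuclear pore protein. The nearest member, NCAPG, was at 0.57. It was the nearest of only 9 candidates, so these distances do not rank members against other genes. The closest pair within the set was NCAPG2 and NCAPH2, at 0.20. SMC2 and NCAPG were nearest to each other at 0.46, NCAPH was nearest to NCAPG at 0.60, and NCAPD2 to NCAPG2 at 0.39. SMC3 was nearest to NCAPG2 at 0.27, NCAPD3 to SMC3 at 0.45, and SMC1A to NCAPH2 at 0.47. Neighbors in this measure were therefore not always in the same complex.

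The abundance of the members in Ctr-KD cells was ordered per kilobase of annotated exon (GENCODE on GRCh37). NCAPD2 (69.7 ± 5.94 normalized counts per kilobase, SD, n = 2) and SMC4 (63.3 ± 3.35) led, and their library ranges overlapped, so their order is not settled. SMC1A (42.4 ± 2.11), NCAPH2 (37.3 ± 3.15), NCAPG (30.5 ± 0.797) and SMC2 (27.5 ± 0.668) followed, then NCAPG2 (19.8 ± 1.96), SMC3 (13.9 ± 1.41), NCAPH (11.1 ± 0.600) and NCAPD3 (8.08 ± 0.684), each with a library range apart from that of the next. This order rests on the length used. With the longest annotated transcript, SMC4 (96.5) was ahead of NCAPD2 (93.5), NCAPH2 (49.8) of SMC1A (46.2), and SMC3 moved to the fifth place at 32.6, with NCAPH last at 12.0. With the canonical transcript, an alternative added after the data were seen, SMC4 (101), NCAPD2 (93.5), NCAPH2 (49.8), SMC1A (47.3) and SMC3 (38.9) came in the same places and NCAPH was again last. With either length the library ranges of SMC4 and NCAPD2, of NCAPH2 and SMC1A, and of SMC3 and the gene after it overlapped. Their orders are therefore not settled.

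The libraries were made with a kit that does not mark strand, so reads from overlapping genes on opposite strands cannot be told apart in 6 members. The shares of exon bases that overlap a listed gene on the other strand were 33.7% in NCAPG (LCORL), 22% in SMC4 (IFT80 and TRIM59), 19.2% in NCAPH2 (SCO2), 11.4% in NCAPD3 (JAM3 and VPS26B), 5.92% in NCAPD2 (MRPL51) and 0.36% in SMC1A (RIBC1). The neighbors of SMC4 had log2 differences of 0.02 (IFT80) and -0.42 (TRIM59), and LCORL had -0.58. SMC2, NCAPH, NCAPG2 and SMC3 overlapped no listed gene.

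The other genes of these pathways were taken from a list of 31 genes in 5 groups, of which 28 passed the filter. The list was written with earlier results of these data known, so its counts are a description. None was called lower or higher by limma. At an unadjusted p under 0.05 in limma, 14 of the 28 were lower and 0 were higher, beside 565 lower and 474 higher of all 11312 tested genes. DESeq2 called ESPL1 and TOP2A lower, and edgeR called none. The median log2 difference over the 28 genes was -0.37. Of them, 24 were below 0, beside 5822 of all 11312 tested genes. In 18 all NSD2-KD libraries lay below both Ctr-KD libraries, beside the 13.9% of all genes given above.

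Of the other cohesin subunits, the kleisin RAD21 and the STAG1 and STAG2 proteins were tested, with a median of -0.44, near the -0.40 of SMC3, and all 3 were lower in every NSD2-KD library. The meiotic subunits were not tested, with SMC1B listed at 0 in all libraries and STAG3 and REC8 under the filter. The 11 genes for loading, release, acetylation and protection of cohesin had a median of -0.18, and 7 had all NSD2-KD libraries below, 1 (MAU2, part of the cohesin loader, log2 difference 0.32) above. The furthest from 0 were CDCA5, ESCO2 and SGO1. CDCA5, or sororin, which protects cohesin after replication, stood at 91.5 and 102 in Ctr-KD cells and at 51.5, 15.3 and 40.0 with NSD2-1, NSD2-2 and NSD2-3 (log2 difference -1.57, standard error 0.44, adjusted p = 0.309, limma). ESCO2, the S phase acetyltransferase of SMC3, was at -1.70 (standard error 0.61, adjusted p = 0.432, limma) and SGO1, the centromeric protector listed as SGOL1, at -0.94 (standard error 0.39, adjusted p = 0.508, limma). Both were low in all libraries, with at most 31.9 and 25.7 normalized counts. ESCO2 stood at 16.2 and 31.9 in Ctr-KD cells and at 2.18 with NSD2-2, under the 3.28 that 3 reads were worth in that library.

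ESPL1, or separase, the protease that cuts cohesin at anaphase, stood at 91.5 and 85.4 in Ctr-KD cells and at 36.8, 22.9 and 45.9 with NSD2-1, NSD2-2 and NSD2-3. Its log2 difference was -1.36 (standard error 0.28, adjusted p = 0.201, limma), further from 0 than that of any condensin or cohesin SMC gene. In the list of the SMC5/6 complex and SMCHD1 the median was -0.11, with 2 of 7 genes lower in all NSD2-KD libraries. SMCHD1, an SMC-hinge protein of the inactive X chromosome, stood at 336 and 305 in Ctr-KD cells and at 279, 157 and 249 with NSD2-1, NSD2-2 and NSD2-3 (log2 difference -0.53, standard error 0.23, adjusted p = 0.534, limma).

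The partners of condensin in mitotic chromosome assembly had a median of -0.98 over 5 genes, with 4 lower in all NSD2-KD libraries. TOP2A, the topoisomerase of mitotic chromosomes, stood at 629 and 662 in Ctr-KD cells and at 419, 274 and 221 with NSD2-1, NSD2-2 and NSD2-3 (log2 difference -1.13, standard error 0.23, adjusted p = 0.201, limma). MKI67, which coats mitotic chromosomes, stood at 912 and 967 against 481, 217 and 110.3 (log2 difference -2.05, standard error 0.49, adjusted p = 0.259, limma). TOP2A and MKI67 were lowest with NSD2-3, the siRNA that left most of SMC2, NCAPD2 and NCAPH, so the order of the siRNAs was not the same over all chromosome assembly genes. KIF4A, a chromokinesin that works with condensin I, was lowest with NSD2-2 instead, at 131 and 115 in Ctr-KD cells and 85.6, 36.05 and 75.2 in NSD2-KD cells (log2 difference -0.98, standard error 0.33, adjusted p = 0.405, limma).

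**Figure D4:**
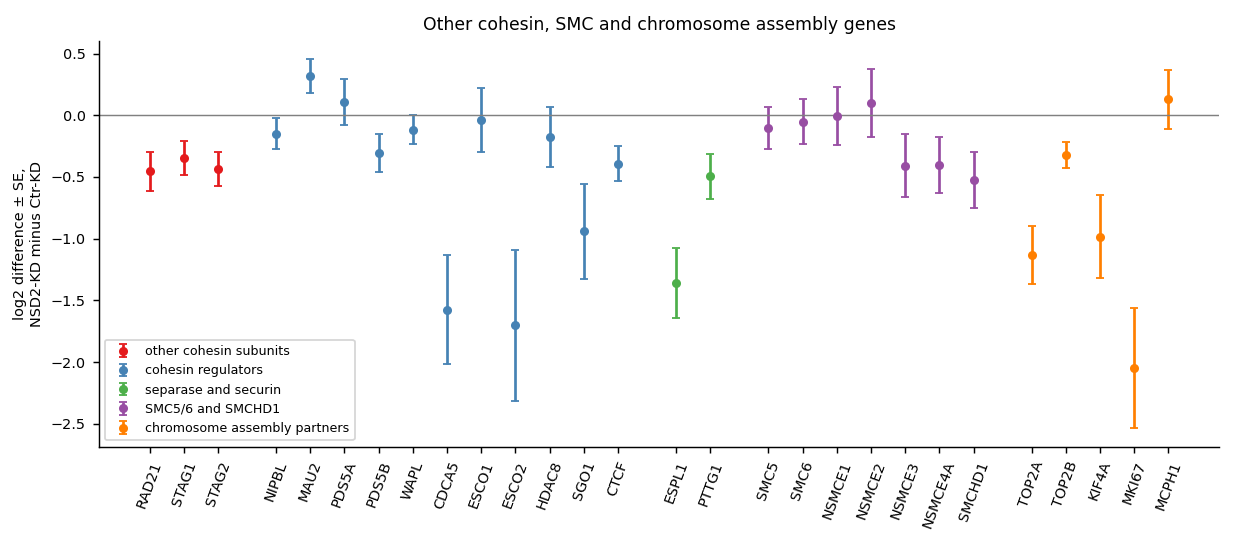
Log2 difference, NSD2-KD minus Ctr-KD, with its limma standard error (vertical axis) for the 28 tested pathway genes, colored by list. The genes furthest below 0 are MKI67 (-2.05), ESCO2 (-1.70), CDCA5 (-1.57) and ESPL1 (-1.36), and no gene passed an adjusted p of 0.05. ESCO2 was under 3 reads in the NSD2-2 library.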

How the data were processed

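Messenger RNA was purified with poly(A) selection and libraries were made with the NEBNext Ultra RNA kit. According to the supporting procedures, reads were trimmed with Trimmomatic, mapped to hg19 with HISAT2, filtered to unique alignments with SAMtools and counted with featureCounts. The annotation and strand setting of the counting are not given in the sources used here. The deposited signal is the count of each gene divided by the DESeq2 size factor of its library, computed by the authors (a change of every gene alike cannot be seen on this scale). A second table, with the authors' own DESeq2 comparison (fold changes and p-values), was not used.

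Dividing by the value of 1 read gave whole numbers for 100% of values in every library (tolerance 0.01), so reads were recovered. Of 26364 names, 17187 had a read, 28 were date-like and left as they were, and 4 rows of 2 repeated names were left out. Groups and replicate numbers came from the labels. The methods call the Ctr-KD libraries biological replicates. They differed by little more than counting noise (chi-square per degree of freedom 1.05 over 12373 genes) and were counted as 2, so p-values may reflect mainly technical spread in Ctr-KD cells.

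NSD2-KD and Ctr-KD libraries were compared with limma 3.58.1 (R 4.3.3, moderated with a trend of variance on mean), two-sided, after adding 1 to each value and taking log2. The 11312 genes whose mean reached 10 were tested, and adjusted p-values (Benjamini-Hochberg) under 0.05 were called. This scale understates the changes of low genes. For 2 against 3 libraries the smallest exact permutation p is 0.1. Intervals are exact 95% Poisson intervals of reads in 1 library and cover counting error only. Fits were tested on simulated data. The members and gene lists were chosen with earlier results of these data known, and the promoter letters after the windows had been searched. S and G2/M lists came from Seurat 5.3.0. Named genes are the members, pathway genes called or lying beyond both Ctr-KD libraries in all NSD2-KD libraries by at least 0.5 (log2), the 5 genes nearest to SMC4 and each member's nearest member. MAU2 and the overlapping neighbors were named after their values were seen.

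Alternatives changed the pseudocount (0.5, 5), the filter (none, 50), the trend (none), the scaling (quantile) or the test (edgeR 4.0.16 quasi-likelihood with TMM, DESeq2 1.42.0, both on recovered reads), added a replicate block, left out 1 library at a time, or used other exon lengths.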

Additional observations from a re-analysis of the deposited data

How the results depend on the processing

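The log2 differences of all 10 members were negative under all 14 alternatives. These were 139 values, as NCAPH was not tested at a mean of at least 50. As every NSD2-KD value lay below both Ctr-KD values, only quantile normalization, edgeR and DESeq2 could have changed the sign. The filter and trend settings left each difference as it was. None moved by more than the residual SD, which holds the spread between siRNAs. Leaving out an NSD2-KD library, or the block, could therefore not pass it. Without NSD2-2, SMC2 went from -0.75 to -0.42 and NCAPH from -1.17 to -0.76. Calls depended on the fit. Genes called lower over the whole table numbered 6, and 1 without the trend, 11 with edgeR, 44 with DESeq2, 84 with the replicate block and 0 to 22 with 1 library left out (0 without either Ctr-KD library, 10 without NSD2-1, 22 without NSD2-3). Genes called higher numbered 4, and 0 without the trend, 8 with quantile normalization, 14 with DESeq2, 18 with the replicate block and 0 to 8 with 1 library left out. Of the members, 0 were called without the trend, 3 (SMC4, NCAPD2 and NCAPH) with the replicate block and 0 to 1 with 1 library left out. Of the pathway genes, where limma called 0, DESeq2 called 2, the replicate block 3 (ESPL1, MKI67 and TOP2A) and the fits with 1 library left out 0 to 2 (MKI67 and TOP2A without NSD2-1). In the block NSD2-3 has no Ctr-KD partner and leaves the estimate, so the members' differences equal those without NSD2-3 and its counts reflect both changes. The deviations of same-numbered libraries correlated at -0.02 and -0.03 across genes. The Ctr-KD libraries differed by little more than counting noise, so this could not show whether the replicate numbers pair the libraries. Genes with all NSD2-KD libraries below both Ctr-KD libraries numbered 980 at a mean of at least 50, and 1355 below against 1755 above with quantile normalization, where the 10 members stayed below. The cause of these changes was not tested. Group medians ranged from -1.04 to -0.71 (shared SMC), -1.11 to -0.68 (condensin I), -0.52 to -0.39 (condensin II) and -0.32 to -0.20 (cohesin SMC). Each siRNA had 1 library, with 16 to 522 reads per member and library, and for NCAPG2, NCAPH2 and SMC1A no NSD2-KD counting interval lay below both Ctr-KD intervals.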
